A study of Mus musculus with 2 samples.

Results

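The Eph receptors, ephrins, semaphorins, plexins, neuropilins, Slits, Robos and netrins are the classical axon guidance families, and 60 of the 30774 gene identifiers on the arrays belong to them by name. They were chosen by symbol alone, as Epha, Ephb, Efna, Efnb, Sema, Plxn, Nrp, Slit, Robo or Ntn followed by its number. The cells were mESCs of strain B6, traced by the labels to the inner cell mass of the early embryo. One culture was kept in serum with LIF, the cytokine that activates Stat3. The other also received CHIR99021 (CHIR), a small molecule that blocks GSK3 and so stabilizes β-catenin, the effector of Wnt signals. The treatment lasted 12 h by the labels, and RNA of each culture was hybridized to 1 Illumina mouse beadchip. Serum and LIF are thus common to both conditions, and the CHIR concentration used for the arrays is not given in the sources used here. The flow chart of the array experiment names 46C ESCs, whereas the labels name B6 cells.

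Each identifier has a signal intensity, from which background had been subtracted, and a detection p-value that compares it with the negative control beads of its own array. Signals of different probes are not levels that can be ranked against each other, so each gene was compared with itself between the arrays. As each condition has 1 array, differences have no replicate check and no test was made of them, and chance variation between cultures and a response to CHIR cannot be told apart. Nor can fewer cells of a type and less RNA per cell, since the RNA came from whole cultures. In what follows, detected means a detection p-value under 0.01, and a gene was counted as higher or lower in LIF plus CHIR where its signals differed by at least 1.5-fold, the limit that the study used. The LIF array detected 9021 identifiers and the other array 9174, with median signals of 10.5 and 10.4 over all identifiers.

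The mESC factor Pou5f1 had a signal of 12347 without and 11309 with CHIR. Of the 9 mESC markers with a value, 7 were detected on both arrays, beside 8580 of all 30774 identifiers. Of 6 genes known to respond to β-catenin, 3 were past 1.5-fold, each higher on the array labelled as treated. Of all detected identifiers, 3.00% were higher by that limit. The study picked Sp5, 1 of the 3, from its CHIR array comparison by the same limit, so its place here was fixed in advance. Axin2 had 314.1 and 1178, a ratio of 3.75, Cdx1 had 75.2 and 963.2, a ratio of 12.8, and Sp5, not detected in LIF, had 48.8 and 809.5. Notum was detected on both arrays with a ratio of 1.02, and Lef1 and Nkd1 were not detected. A lack of detection did not mean that a transcript was absent. Sox2, which defines these cells, had signals of 441.2 and 400.2 and yet detection p-values of 0.0503 and 0.276. It is one of 7419 identifiers taken to be measured by several probes with a combined p-value, because their p-values were not multiples of 1 over 936, the inferred number of negative controls, within 0.002 of a whole number. Of the 60 guidance genes, 34 were of that kind and 26 had 1 probe. Among all identifiers with several probes, 1165 had a signal over 100 in LIF without being detected there.

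These families work as contact or short-range signals between cells. Ephrins are membrane-bound ligands of the Eph receptor tyrosine kinases, ephrin-A proteins being held by a lipid anchor and ephrin-B proteins by a transmembrane segment, and both partners can signal into their own cell. Semaphorins act through plexins, which regulate small GTPases and integrin adhesion, and the secreted class 3 proteins usually need a neuropilin as co-receptor. Slits bind Robo receptors, and netrins bind Dcc, Neo1 and Unc5 receptors. Outside the nervous system the same proteins set boundaries between cell sheets and guide vessels and migrating cells, and several Eph and ephrin genes are active in pluripotent cells.

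Of the 60 guidance genes, 10 were detected on both arrays, 3 in LIF plus CHIR alone and 47 on neither. The 13 detected genes are 21.7% of the families, against 31.2% of all identifiers. The order of these shares turned with the limit, since at a detection p-value under 0.05 they were 27 of 60 genes (45.0%) and 38.0% of all identifiers. By probe number, 10 of 26 genes with 1 probe were detected (38.5%, against 33.3% of all such identifiers), and 3 of 34 genes with several probes (8.82%, against 24.7%). The 13 genes were 6 of 22 Eph and ephrin genes, 6 of 19 semaphorins and 1 of 9 plexins. None of the 10 Slit, Robo, netrin and neuropilin genes was detected. Of the 47 undetected genes, 44 had a signal under 100 on both arrays and 13 were below 0 on both, and 14 had a detection p-value between 0.01 and 0.05 on at least 1 array.

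**Figure D1:**
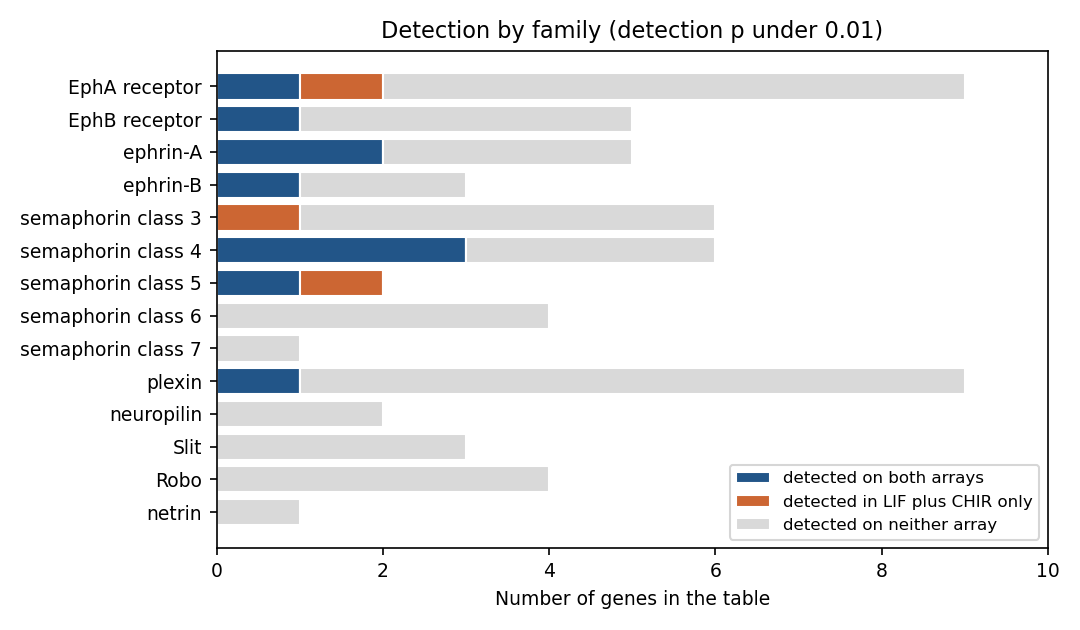
Number of guidance genes in the table for each family, split by detection at a p-value under 0.01. Blue marks genes detected on both arrays, orange those detected in LIF plus CHIR alone and grey those detected on neither. Class 4 semaphorins have the most genes detected on both arrays, 3 of 6, and the class 6 and class 7 semaphorins, neuropilin, Slit, Robo and netrin bars are grey throughout.

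Among the detected genes, Epha1 and Sema5a (2 of 13) passed the 1.5-fold limit with the higher signal under CHIR, and 0 passed it in the other direction. Over all 9615 detected identifiers the corresponding shares were 3.00% higher and 3.16% lower. The median log2 fold change of the 13 genes was 0.16, against 0.00 over all detected identifiers, and 8 of the 13 had the higher signal in LIF plus CHIR (61.5%, against 49.2%). Among the 10 genes detected on both arrays, 5 had the higher signal in LIF plus CHIR and 5 the lower, with a median of -0.01. The other 3, Epha1, Sema3f and Sema5b, were detected in LIF plus CHIR alone, and no guidance gene was detected in LIF alone. Of all 9615 detected identifiers, 594 were detected in LIF plus CHIR alone and 441 in LIF alone. Detection in LIF plus CHIR alone favors a higher signal there, and so favors the count of 8 and the median of 0.16. Brightness bears on such counts: 1.5-fold in either direction was passed by 10.3% of identifiers whose brighter signal was under 100, by 7.34% from 100 to 1000 and by 2.20% from 1000 upward. Both genes past the limit were dim, with no signal above 101.1. Both are also among the 3 detected genes with several probes (Epha1, Sema3f and Sema5a). All 3 had the higher signal in LIF plus CHIR, with a median log2 fold change of 0.65. Of the 10 detected genes with 1 probe, 0 passed the limit. In LIF plus CHIR 5 of these had the higher signal and 5 the lower, with a median of -0.01.

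**Figure D2:**
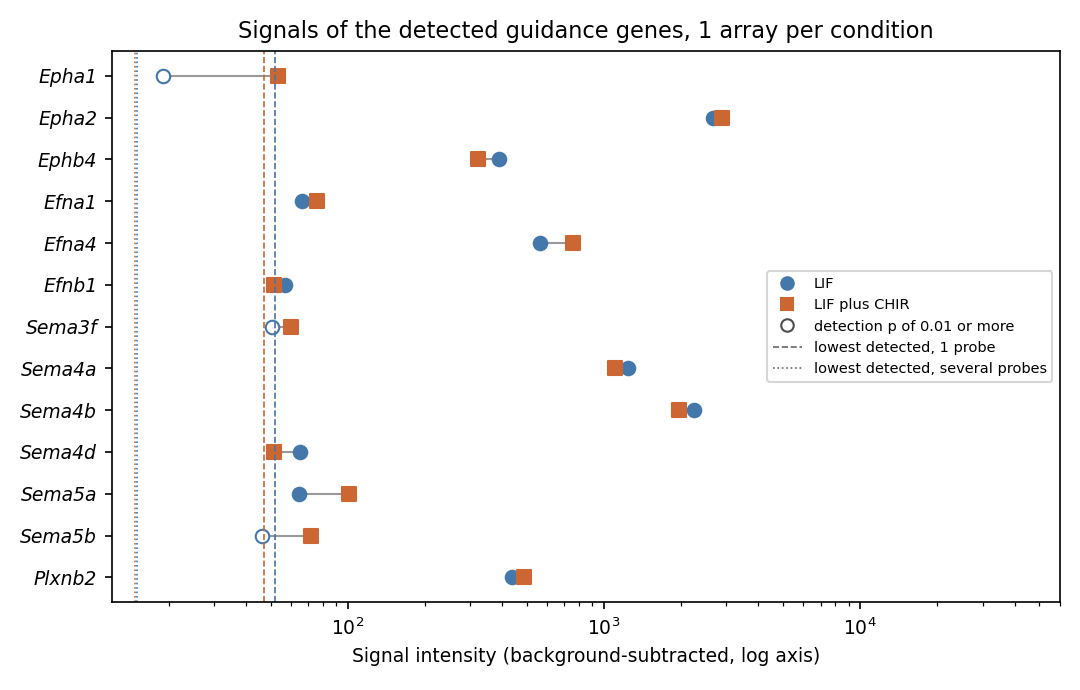
Signal intensity (log axis) of the 13 detected guidance genes in LIF (circles) and LIF plus CHIR (squares), each from 1 array, so there are no error bars. Open symbols mark a detection p-value of 0.01 or more, and vertical lines mark the lowest detected signal of each array for identifiers with 1 probe (dashed) and with several probes (dotted). Epha1, Sema5a and Sema5b show the widest gaps, and their signals are at or below 101.1.

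The promoters of 4 of these genes are printed with the letters that were searched in capitals. Epha1 and Sema5a are shown because they passed the limit, and Epha2 and Efna4 as a receptor and a ligand of the A class that were detected clearly on both arrays. Each run is the 250 bases before a RefSeq transcript start in build GRCm38.p6, written 5′ to 3′ on the strand of the gene. Epha1 lies at chr6:42373269-42373518 on the minus strand, Epha2 at chr4:141300971-141301220 on the plus strand, Efna4 at chr3:89338029-89338278 on the minus strand and Sema5a at chr15:32244563-32244812 on the plus strand. Capitals mark a TCF/LEF core (CTTTGAA or CTTTGAT) or a GC box (GGGCGG) on either strand.
Epha1: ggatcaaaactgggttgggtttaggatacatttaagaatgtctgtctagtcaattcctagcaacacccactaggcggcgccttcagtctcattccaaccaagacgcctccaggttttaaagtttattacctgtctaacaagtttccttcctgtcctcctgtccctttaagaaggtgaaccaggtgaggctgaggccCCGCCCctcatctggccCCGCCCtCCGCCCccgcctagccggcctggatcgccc
Epha2: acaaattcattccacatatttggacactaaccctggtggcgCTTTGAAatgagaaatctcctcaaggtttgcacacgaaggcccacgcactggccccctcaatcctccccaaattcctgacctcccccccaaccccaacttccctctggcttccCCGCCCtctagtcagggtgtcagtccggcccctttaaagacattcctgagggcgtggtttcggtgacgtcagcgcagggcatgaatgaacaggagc
Efna4: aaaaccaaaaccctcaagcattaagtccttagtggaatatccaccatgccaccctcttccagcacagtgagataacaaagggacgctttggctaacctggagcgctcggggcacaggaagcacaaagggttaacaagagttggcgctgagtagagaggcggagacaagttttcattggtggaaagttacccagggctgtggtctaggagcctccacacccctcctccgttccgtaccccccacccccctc
Sema5a: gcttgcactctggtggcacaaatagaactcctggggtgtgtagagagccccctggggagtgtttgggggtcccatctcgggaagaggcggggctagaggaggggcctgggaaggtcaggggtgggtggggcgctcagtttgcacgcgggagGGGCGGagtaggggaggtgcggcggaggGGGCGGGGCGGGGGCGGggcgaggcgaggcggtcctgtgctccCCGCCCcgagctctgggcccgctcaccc

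In these runs, Epha2 holds 1 TCF/LEF core, which starts 209 bases before the transcript start, and 1 GC box. Epha1 holds 3 GC boxes, within 54 bases of the start, and Sema5a holds 5, with a pair that share a base. Neither motif occurs in the Efna4 run. With 50 bases after the start included, promoters were found by symbol for 53 of the 60 genes, 69 promoters in all. A TCF/LEF core, the sequence bound by the factors through which β-catenin acts, was present in 3 of the 69 (4.35%), against 8.65% of all 32851 promoters and 7.57% of those of protein-coding genes. A GC box, bound by Sp and Klf factors, was present in 50 (72.5%), against 35.7% and 46.2%. Among detected genes 14 of 20 promoters (70.0%) held it, and among undetected genes 36 of 49 (73.5%). A Stat site (TTCCNGGAA) was in none of the 69 and in 1.15% of all promoters. These matches describe the letters in a window and are not evidence of binding.

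The A-class receptors and ligands that were detected all had a higher signal in LIF plus CHIR. Epha1 was detected on that array alone, which favors this direction for it. Epha2, the receptor of this class best known from epithelial and early embryonic cells, had a signal of 2656 in LIF and 2879 in LIF plus CHIR. It was bright on both arrays, and the difference was 1.08-fold (log2 fold change 0.12). Of the 3269 detected identifiers with a brighter signal of 1000 or more, 44.1% differed by at least as much. Epha1, a receptor of the same class that epithelia also express, had 19.1 in LIF and 53.3 in LIF plus CHIR, with detection p-values of 0.0363 and 0.00365. It was thus detected with CHIR alone, and its ratio of 2.79 (log2 fold change 1.48) is taken against a LIF signal that was not detected. Set against 51.9, the lowest detected signal in LIF of identifiers with 1 probe, an alternative chosen after the data were seen, its log2 fold change was 0.04.

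Efna4, a lipid-anchored ligand of EphA receptors, had a signal of 561.6 in LIF and 756.0 in LIF plus CHIR, both above every negative control. The ratio was 1.35 (log2 fold change 0.43), under the limit of 1.5-fold. Among the 4521 detected identifiers with a brighter signal between 100 and 1000, 13.6% differed by at least as much. Efna1, the ligand most often paired with Epha2, was dim, with 66.3 in LIF and 75.8 in LIF plus CHIR. It was detected on both arrays and differed by 1.14-fold (log2 fold change 0.19), and 54.0% of identifiers of like brightness differed by at least as much.

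The array annotation places Efna1, Efna3 and Efna4 in the same band, 3qF1, and in the RefSeq gene table they are consecutive protein-coding genes between Slc50a1 and Adam15. Efna4 was well above background and Efna1 close to it, while Efna3 was not detected, with 10.4 in LIF and 28.5 in LIF plus CHIR. Sema4a lies in the same band.

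The detected B-class genes had the opposite sign. Ephb4, a receptor that binds ephrin-B2 and is best known from veins, had a signal of 388.2 in LIF and 322.3 in LIF plus CHIR. It was detected clearly on both arrays and was 1.20-fold lower with CHIR (log2 fold change -0.27), and 28.3% of identifiers of like brightness differed by at least as much. Efnb1, a transmembrane ligand encoded on the X chromosome, had 56.7 in LIF and 51.7 in LIF plus CHIR. Both signals were near the lowest detected one, and the difference was 1.10-fold (log2 fold change -0.13). Of identifiers of like brightness, 66.6% differed by at least as much. Efnb2, the main ligand of Ephb4, was below 0 on both arrays, with -9.51 and -14.2. The contrast between the A and B classes rests on 4 and 2 genes from 1 pair of arrays and was not tested. It also depended on the detection limit. At a detection p-value under 0.05 the B class was mixed. Ephb2 (39.4 and 56.4) and Ephb3 (21.4 and 32.3) then entered with the higher signal in LIF plus CHIR, and Efnb3 (35.4 and 27.1) with the lower.

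The other 11 Eph receptors and 5 ephrins were not detected. The Eph receptors among them had signals from -10.7 to 41.4 in LIF and from -12.4 to 56.4 in LIF plus CHIR. Epha4, a receptor for both ephrin classes, was the nearest to detection of those with 1 probe, with signals of 41.4 and 44.6 and detection p-values of 0.0235 and 0.0139. Efna5 had signals of 202.1 and 183.1, well above the lowest detected signal, but it has several probes and combined detection p-values of 0.0727 and 0.162. The values of its single probes were not analysed here.

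The 6 detected semaphorins belong to classes 3, 4 and 5, and differences between the classes were not tested. The 3 detected class 4 proteins, which are transmembrane ligands that act largely through plexin-B receptors, all had a lower signal in LIF plus CHIR. Sema4b had 2237 without and 1960 with CHIR, 1.14-fold lower (log2 fold change -0.19). Sema4a had 1237 and 1103, 1.12-fold lower (log2 fold change -0.17). Both were bright, and 22.4% and 28.2% of identifiers from 1000 upward differed by at least as much. Sema4d, the best-known ligand of Plxnb1 and Plxnb2, had 65.0 and 51.4, close to background, and was 1.26-fold lower (log2 fold change -0.34). Of identifiers of like brightness, 31.5% differed by at least as much. The shared direction of class 4 depended on the detection limit. At a detection p-value under 0.05, Sema4g also entered, with the higher signal in LIF plus CHIR (26.2 and 33.0).

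Class 5 semaphorins, transmembrane proteins with thrombospondin repeats, had a higher signal in LIF plus CHIR. Sema5a was detected on both arrays, at 64.4 without and 101.1 with CHIR. Its ratio was 1.57 (log2 fold change 0.65), just past the limit, and 5.88% of identifiers between 100 and 1000 differed by at least as much. Sema5a stands at the dim edge of that range. The 1.5-fold limit was passed by 7.34% of identifiers in it and by 10.3% of those under 100. The log2 fold change of Sema5a was 0.54 after normexp correction with an offset of 16 added to each signal, which is under the limit. Such an offset by itself draws the ratio of a dim gene towards 1, and its part was not separated from that of the correction. Sema5b had 46.4 and 72.0, with a detection p-value of 0.0192 in LIF and 0 in LIF plus CHIR. Set against the lowest detected LIF signal of identifiers with 1 probe, its CHIR signal was higher by at least 1.39-fold (log2 fold change 0.47), and the plain ratio was 1.55. Of identifiers of like brightness, 18.1% differed by at least 1.39-fold. Both genes are named on the array by rows that carry no Entrez gene number.

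Sema3f, a secreted class 3 protein that signals with Nrp2, was detected in LIF plus CHIR alone. Its signals of 50.7 and 59.9 differed by 1.18-fold, although the detection p-values were 0.0153 and 0.00409. Of identifiers of like brightness, 45.6% differed by at least as much. The other 13 semaphorins were not detected and had signals up to 48.7 in LIF and 57.0 in LIF plus CHIR. Sema6a, a class 6 protein that binds plexin-A receptors, had the LIF value at that upper end and 20.7 in LIF plus CHIR, with detection p-values of 0.0386 and 0.164.

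Of the receptors, Plxnb2 was detected on both arrays. This plexin, which binds class 4 semaphorins, had 436.3 without and 487.6 with CHIR, 1.12-fold higher (log2 fold change 0.16), and 49.1% of identifiers of like brightness differed by at least as much. Its sign was opposite to that of the class 4 semaphorins detected at p under 0.01, and all these differences were under the limit of 1.5-fold. The other 8 plexins had signals from -9.41 to 40.4 in LIF and from -12.1 to 33.5 in LIF plus CHIR, and none was detected. Nrp1 and Nrp2, the co-receptors for class 3 semaphorins, had 3.66 and 1.83 in LIF and 13.7 and 4.46 in LIF plus CHIR.

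**Figure D3:**
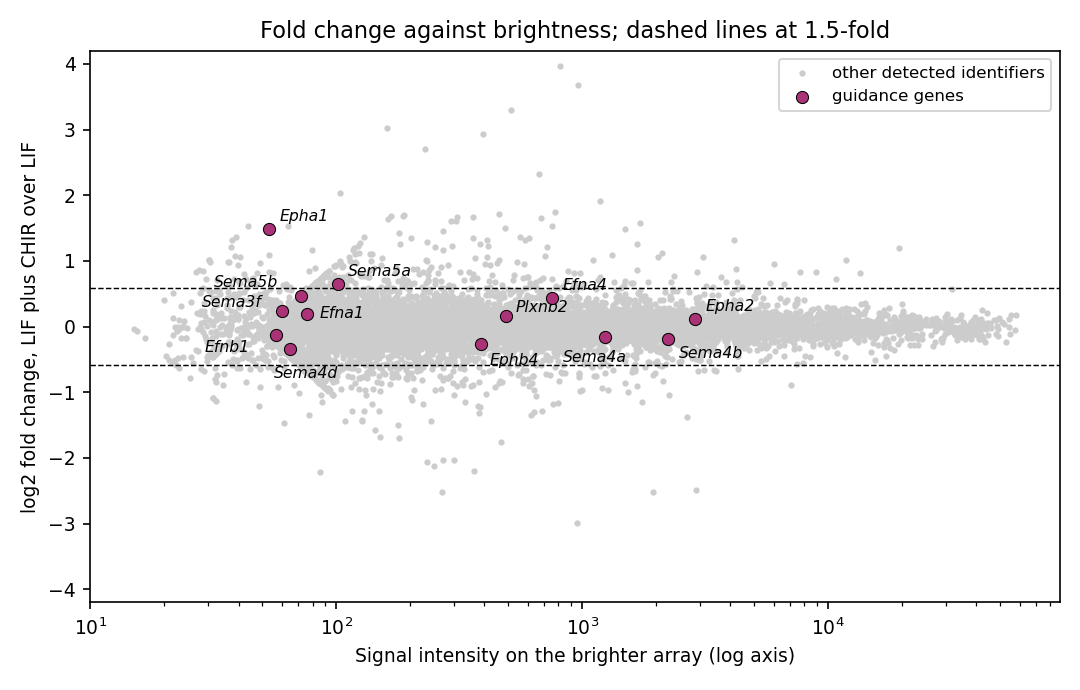
Log2 fold change of LIF plus CHIR over LIF against the signal on the brighter array (log axis) for 9615 detected identifiers, with the 13 guidance genes in purple. Dashed lines mark 1.5-fold. Epha1 and Sema5a lie above the upper line, at the dim end, and Epha2, Sema4a and Sema4b lie among the bright points with log2 fold changes from -0.19 to 0.12.

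The Slit and Robo genes gave no detected signal. Slit1, Slit2 and Slit3, the secreted ligands, had -0.82, 6.67 and 13.9 in LIF and 8.49, 16.1 and 19.97 in LIF plus CHIR. Their detection p-values in LIF plus CHIR were 0.225, 0.0254 and 0.0348. Robo2 and Robo3 were also near 0, at most 21.3 on either array. Robo4, the Robo receptor of endothelium, had signals of 312.8 and 307.8 and just missed detection, with p-values of 0.0101 and 0.0230. Robo1 had 148.3 and 165.2, with 0.0660 and 0.0445. Both have several probes, and the ratio of LIF plus CHIR over LIF was 1.11 for Robo1 and 0.98 for Robo4.

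Ntn4, a netrin related to laminins, had 0.21 and 4.12. A further netrin stands in the table under its older symbol Ntn2l, with Ntn3 as a synonym, and was looked up after the values were seen. It had 143.4 in LIF and 160.0 in LIF plus CHIR, with detection p-values of 0.0120 and 0.00422.

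Among 54 other genes of these pathways, 50 had a value and 17 were detected, beside 31.2% of all identifiers. Their median log2 fold change was -0.06. The 1.5-fold limit was passed upward by 2 of the 17 and downward by 1, where 3.00% and 3.16% of all detected identifiers passed it. Neo1, a receptor for netrins and for repulsive guidance molecules, had 159.9 without and 250.8 with CHIR, 1.57-fold higher. Src, a kinase recruited by ephrins and Eph receptors, had 185.6, not detected, and 285.8, 1.54-fold higher. Crmp1, a cytoplasmic mediator of semaphorin signals, had 552.1 and 333.0 and was 1.66-fold lower.

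Of the netrin receptor group with a value, 3 of 13 genes were detected, beside 31.2% of all identifiers. Besides Neo1, Unc5b was detected at 140.5 and 134.4, Dcc was not detected at 5.68 and 2.23, and Flrt3, a membrane protein that binds Unc5 receptors, was just under the limit at 334.9 and 498.8 (1.49-fold higher). Grb7, an adaptor of activated receptor kinases, and Gpc1, a heparan sulfate proteoglycan that binds Slit, were bright on both arrays. Grb7 had 6911 and 7001, and Gpc1 had 2414 and 2882. Of the genes listed as semaphorin mediators with a value, 9 of 18 were detected, beside 31.2% of all identifiers. Their median log2 fold change was -0.38, against 0.00 over all detected identifiers, and Crmp1 was the 1 of the 9 past the limit. Dpysl5 (1.35-fold) and Rras (1.17-fold) had the higher signal in LIF plus CHIR, and the rest of the 9 the lower. The 9 include Plxdc1 (log2 fold change -0.41), named for a plexin domain, so the list is wider than mediators alone.

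Markers of cells that use guidance genes were read beside these values. None of 6 fibroblast markers was detected, and their summed signals of 213.9 in LIF and 214.7 in LIF plus CHIR came almost wholly from Thy1 (222.3 and 225.3), with several probes. Of 5 neural markers with a value, Nes was detected, with CHIR alone, at 44.8 against 27.7 in LIF, and the summed signals were 48.1 in LIF and 94.3 in LIF plus CHIR, of which undetected Sox1 gave -7.23 and 28.9. Of 4 endothelial markers, Tek was detected on both arrays (586.8 and 486.6) and Vwf in LIF alone. Vwf had 97.0 without and 45.9 with CHIR, and set against the lowest detected signal it was at least 2.06-fold lower. The endothelial sums were 711.5 and 550.5, while Cdh5 was near 0 (2.46 and 0.43). Sox7 was the detected one of 5 primitive endoderm markers, with sums of 120.5 and 106.0. Of 4 mesoderm markers, T had 394.5 in LIF plus CHIR and 8.05 in LIF, where it was not detected, and the others were not detected on either array, so that the sums were -11.5 and 415.5. The part of such cells in the differences of guidance genes was not tested.

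**Figure D4:**
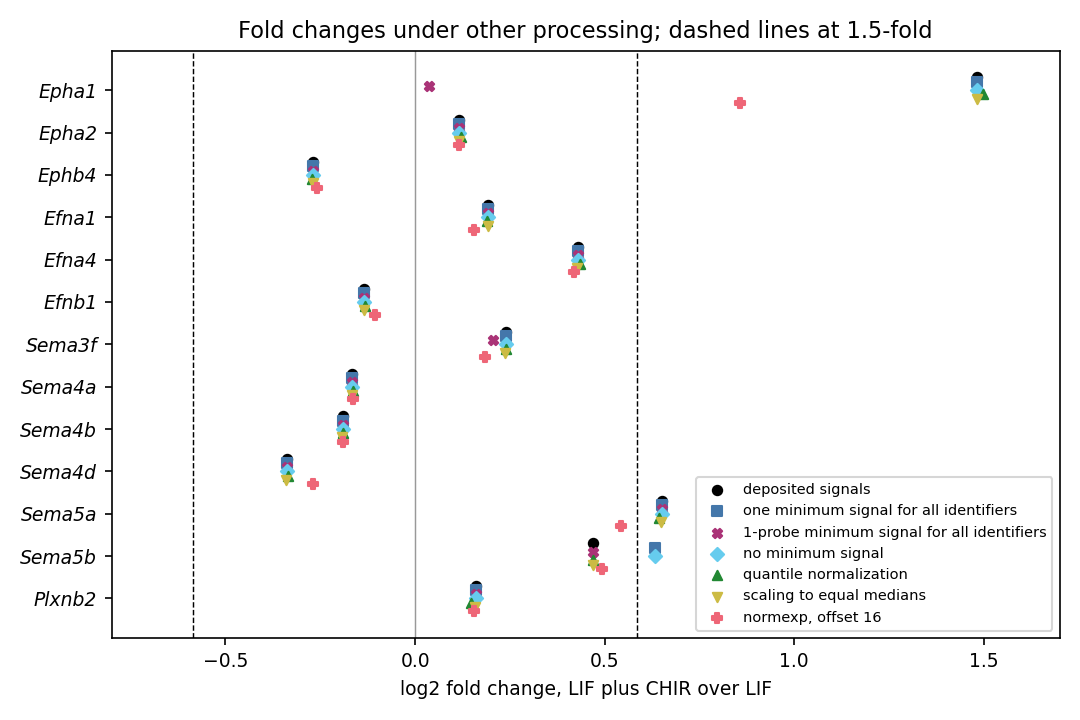
Log2 fold change of LIF plus CHIR over LIF for the 13 detected guidance genes with the deposited signals (black) and under 6 other ways of treating them (colors). Dashed lines mark 1.5-fold. No gene changes sign in these settings, and Epha1 has the widest range, from 0.04 with the 1-probe minimum to 1.48 with the deposited signals or a little above.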

How the data were processed

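Gene expression of mESCs was profiled with 1 Illumina mouse beadchip per condition, assigned from the labels. The deposited signal intensity is linear and background-subtracted, with 1 value per identifier and array and nearly the same distribution on both arrays. The software and the normalization are not given in the sources used here. With every signal the authors gave its detection p-value. The table described as normalized holds 11702 of the 30774 identifiers, and 0 of its values differed from the longer table, which was used.

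The members and lists were chosen with earlier results of these data known. Every member detected at p under 0.01 on at least 1 array was named with its values, and from the related and marker lists the genes past the limit and those that define a list. Genes named for another reason were picked after their values were seen. Fold changes, always LIF plus CHIR against LIF, came from scripts in Python 3.11.15 (numpy 2.4.6, pandas 2.3.3; figures by matplotlib 3.10.9). A signal below the lowest detected one of its array (in LIF 51.9 with 1 probe and 15.1 with several, in LIF plus CHIR 47.1 and 14.8) was raised to it. Alternatives were detection at p under 0.05 or on both arrays, other minimum signals or none, quantile normalization, scaling to equal medians, normexp correction, a limit of 2-fold and the shorter table. Normexp used limma 3.58.1 in R 4.3.3, with an offset of 16 added to every corrected signal, which by itself draws ratios of dim genes towards 1. The calculation was tested on simulated arrays with known changes in bright identifiers only, so changes in dim genes or in genes detected on 1 array were not covered. Promoters were those of RefSeq in GRCm38.p6. The files name no build.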

Additional observations from a re-analysis of the deposited data

How the results depend on the processing

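No paired analysis was possible because each array stands alone in its condition. The count of detected guidance genes was 13 (21.7%, against 31.2% of all identifiers), and 27 at a detection p-value under 0.05 (45.0%, against 38.0%), so that the share went from below to above that of all identifiers. The count of genes at least 1.5-fold higher was 2 (Epha1 and Sema5a). It was 4 at a detection p-value under 0.05, with Sema5b and Slit2 added (4.09% of all detected identifiers), and 3 with 1 minimum signal for all identifiers or with none, with Sema5b added (4.11%). It was 1 (Sema5a) with detection on both arrays (2.37%) and with the 1-probe minimum for all identifiers (2.57%), which was added after seeing the data. It was 1 (Epha1) after normexp correction (2.82%) and at a limit of 2-fold (0.811%). The count of lower genes was 0, and 1 (Sema6a) at a detection p-value under 0.05. Over all identifiers, 288 were higher and 304 lower, 479 and 519 at a detection p-value under 0.05, and 78 and 54 at a limit of 2-fold.

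Under quantile normalization, scaling to equal medians and the shorter table, the counts of guidance genes did not move. For the shorter table this was fixed in advance, since it repeats the same values for the 13 genes. The scaling was slight, taking the log2 fold change of Efna4 from 0.429 to 0.428, so an unmoved count says little. Over the settings, the median log2 fold change of the guidance genes lay between -0.01 and 0.16. All 13 genes kept their sign under each alternative that gave them a value. The alternatives reuse the same pair of arrays, and several leave the signals unchanged, so a kept sign is not a replicate check. Epha1 had a log2 fold change of 1.48, 0.86 after normexp correction and 0.04 with the 1-probe minimum. Src fell just under the limit after normexp correction with its offset, at 0.58. Signal over background limits the dim genes most, and single probes of genes with several could not be examined.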
